A study of Mus musculus with 8 samples.

Results

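The genes of polyamine synthesis and turnover were followed in the ventral prostate of wild type mice and of mice carrying an active transgenic p110 beta (a PI3-kinase catalytic subunit). The set has 9 genes, named Odc1, Amd1, Srm, Sms, Sat1, Smox, Oaz1, Oaz2 and Azin1. Its members are the probe sets that the array's annotation names for 1 of these genes alone, and 11 of the 22626 probe sets tested met that rule, covering 7 genes. The 3 probe sets for Sms also name its pseudogene Sms-ps, and 1 further Oaz1 probe set also names Oaz1-ps, so these 4 are given apart. Amd1, which encodes S-adenosylmethionine decarboxylase, was not analysed here. Of the 7 genes, Odc1 and Srm were lower in transgenic prostates, Smox was higher, and Sat1, Oaz1, Oaz2 and Azin1 did not pass the test.

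Polyamines are small positively charged molecules that bind nucleic acids and are needed for cell growth, and the prostate makes and secretes large amounts of them. Ornithine decarboxylase, the product of Odc1, makes putrescine. Spermidine synthase (Srm) and spermine synthase (Sms) then add aminopropyl groups drawn from decarboxylated S-adenosylmethionine. Sat1 encodes the acetyltransferase that marks spermidine and spermine for export or breakdown, and Smox the oxidase that turns spermine back into spermidine. Antizymes (Oaz1, Oaz2) bind ornithine decarboxylase and send it to the proteasome, and the antizyme inhibitor encoded by Azin1 counters them. Antizyme synthesis is set by a ribosomal frameshift and several of these enzymes are controlled by their turnover, so the arrays report transcripts and not enzyme amounts.

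The 8 arrays were from FVB mice aged 20 weeks, of which 4 were wild type with normal prostate and 4 transgenic with mPIN, the preinvasive lesion called mouse prostatic intraepithelial neoplasia. The promoter that drives the transgene, and whether each array stands for a separate animal, are not given in the sources used here, so the p-values rest on the spread of these samples, which may be technical. Each value is a log2 RMA value of 1 probe set, and a log2 fold change is the transgenic less the wild type mean, tested with limma and called at a Benjamini-Hochberg adjusted p under 0.05 over all probe sets. By that rule 9.84% of all probe sets were called, 5.48% higher and 4.36% lower in transgenic samples, and the groups did not overlap for 15.0%. The tissue label fitted its markers, with the wild type means of the prostate secretory genes Pbsn and Msmb at 12.85 and 13.38, and all 6 seminal vesicle markers measured at 4.47 or less on every array.

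Some cell type markers differed between the same groups. Of 9 luminal markers 5 rose, and the array means of their centred values ran from -0.39 to -0.21 in wild type and from 0.25 to 0.31 in transgenic samples. Of 11 basal markers 5 fell, with array means from 0.11 to 0.30 in wild type and from -0.28 to -0.14 in transgenic samples. Of 12 smooth muscle and 12 fibroblast markers 3 and 2 fell. The called shares were 55.6% of luminal, 45.5% of basal, 25.0% of smooth muscle and 16.7% of fibroblast markers, against 11.0% of all genes. The fibroblast array means overlapped, from -0.30 to 0.99 in wild type and from -0.39 to -0.18 in transgenic samples. The joint stromal score of smooth muscle and fibroblast markers ran from -0.17 to 0.83 in wild type and from -0.43 to -0.19 in transgenic samples. The groups did not overlap in the printed luminal, basal and stromal ranges, narrowly so for the stromal score. The 3′ less 5′ log2 signal of the actin and Gapdh control probe sets, a sign of RNA quality, ran from 1.34 to 1.56 in wild type and from 0.97 to 1.40 in transgenic samples (exact permutation test, two-sided p = 0.0571, n = 4 each). Apart from the fits with the stromal score as a term, the part of these measures in the results was not tested. In those fits calls over all probe sets were also fewer, and the score itself differs between the groups. In whole tissue, fewer cells of a type and less RNA per cell cannot be told apart.

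The promoter sequences of Odc1 and Smox are shown because these genes moved in opposite directions and RefSeq gives a window for each. They are from the GRCm38.p6 assembly, both on the plus strand and upstream of the annotated gene, 185 bases at chr12:17544623-17544807 for Odc1 and 246 bases at chr2:131491612-131491857 for Smox. Capitals mark the GC box letters GGGCGG on either strand.
Odc1: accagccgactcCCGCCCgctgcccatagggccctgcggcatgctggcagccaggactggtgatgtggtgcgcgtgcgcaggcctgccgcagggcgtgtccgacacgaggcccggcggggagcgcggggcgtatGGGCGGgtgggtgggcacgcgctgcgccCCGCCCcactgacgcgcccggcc
Smox: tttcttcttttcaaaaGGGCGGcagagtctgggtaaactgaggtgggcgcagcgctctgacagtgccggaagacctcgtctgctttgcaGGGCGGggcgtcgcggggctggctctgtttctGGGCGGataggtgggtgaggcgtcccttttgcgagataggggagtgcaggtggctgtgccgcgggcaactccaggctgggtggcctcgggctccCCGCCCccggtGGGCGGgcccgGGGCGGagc
In the whole window of 250 bases before the listed start, the letters occurred 4 times for Odc1, at 80.0% G and C, and 6 times for Smox, at 68.0%. Of all 32851 windows of that length 4.09% held 4 or more and 0.886% held 6 or more, against a median of 52.4% G and C. The E-box letters CACGTG, a palindrome that MYC and its partners can bind, were in 6.02% of all windows and in neither the Odc1 nor the Smox window. Genes of the set that did not pass held such letters too. The GC box letters occurred 4 times in a window of Sms, 3 times for Oaz2, 2 times for Sat1 and 0 times for Oaz1. The E-box letters occurred 1 time in another window of Sms. Sequence after the listed start was not searched, so the scan does not tell whether Odc1 or Smox holds the E-box letters elsewhere. A match of letters is not a binding site.

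Odc1, the entry enzyme of the pathway, fell on all 3 of its probe sets. On its brightest probe set, 1438761_a_at, the wild type arrays 1 to 4 read 10.91, 10.26, 10.16 and 10.24, and the transgenic arrays 9.15, 9.68, 9.68 and 9.71. The groups did not overlap, but wild type array 1 stood above and transgenic array 1 below the other 3 of its group. The means were 10.39 ± 0.35 and 9.55 ± 0.27 (SD, n = 4 each), so wild type was 1.79-fold higher. The log2 fold change was -0.84 ± 0.18 (SE, limma adjusted p = 0.0124).

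The other Odc1 probe sets gave like differences. Probe set 1437711_x_at read 10.14, 9.52, 9.26 and 9.23 in wild type and 8.76, 8.74, 8.70 and 8.97 in transgenic samples, a log2 fold change of -0.74 ± 0.18 (SE, adjusted p = 0.0221). Probe set 1427364_a_at read 8.54, 7.86, 7.69 and 7.73 in wild type and 6.94, 7.32, 7.42 and 7.22 in transgenic samples, a log2 fold change of -0.73 ± 0.18 (SE, adjusted p = 0.0270). Wild type array 1 was again the highest of all arrays on both. These probe sets read 1 gene in the same RNA and are not separate evidence of its fall.

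The size of the Odc1 difference rested in part on array 1 of each group, which had the lowest stromal score of its group (-0.17 and -0.43). Without both of them the log2 fold change of the brightest probe set was -0.53 ± 0.10 (SE, adjusted p = 0.00643), and all 3 probe sets still passed. With that score as a term in the fit it was -1.03 ± 0.26 (SE), larger in size but past the threshold no longer (adjusted p = 0.0558). Leaving out transgenic array 2 or 3 ended the call of 1437711_x_at (adjusted p = 0.0677 and 0.0683). Leaving out transgenic array 1, 2 or 4 ended that of 1427364_a_at (adjusted p = 0.0639, 0.0590 and 0.0721). The brightest probe set kept its call without any 1 array.

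Srm, encoding spermidine synthase, had the largest change in size of the members that passed. Its 1 probe set, 1421260_a_at, read 9.87, 9.47, 9.84 and 9.84 in wild type arrays 1 to 4 and 8.95, 8.64, 8.65 and 8.68 in transgenic arrays. Every transgenic value lay below every wild type value, with means of 9.76 ± 0.19 and 8.73 ± 0.15 (SD, n = 4 each). The level was 2.04-fold higher in wild type, a log2 fold change of -1.03 ± 0.12 (SE, adjusted p = 0.000254). It passed without any 1 array, with log2 fold changes from -1.12 to -0.99, and with the stromal score in the fit it was -1.29 ± 0.15 (SE, adjusted p = 0.000786).

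Sms, encoding spermine synthase, could be read only through probe sets that also name its pseudogene. On the brightest of the 3, 1434190_at, wild type arrays read 6.75, 6.86, 6.88 and 7.16 and transgenic arrays 6.89, 6.83, 6.82 and 6.84. The groups overlapped, and the log2 fold change was -0.07, with a 95% interval from -0.30 to 0.16. The other probe sets gave log2 fold changes of 0.00 and -0.03, the latter from means of 3.80 and 3.77, below the median of every array. None of the 3 passed, at unadjusted p of 0.534, 0.980 and 0.771 in limma. The intervals of Srm and of the brightest Sms probe set did not overlap, and the difference between the genes was not tested.

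**Figure D1:**
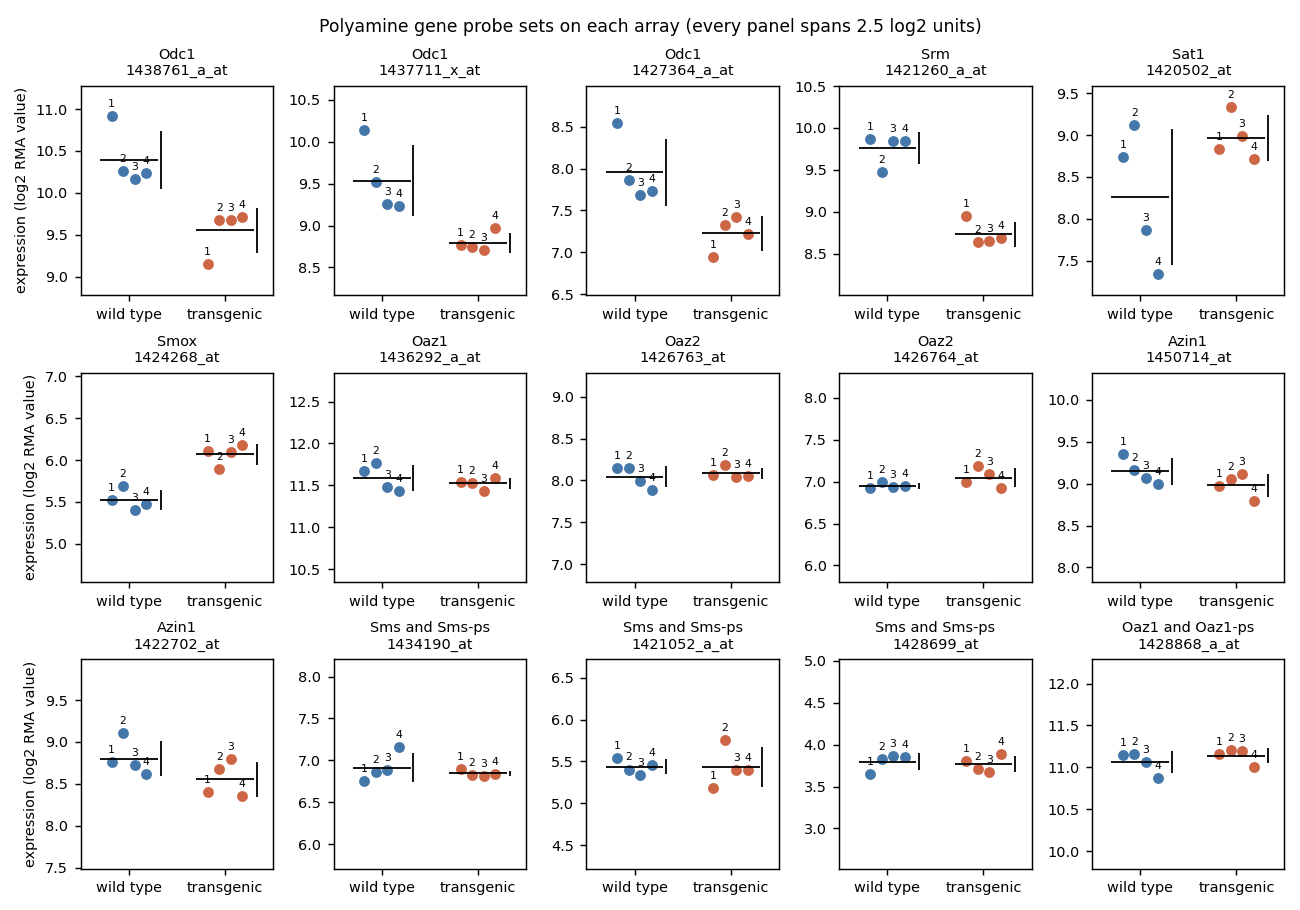
Log2 RMA value (y axis) of each polyamine gene probe set on the 4 wild type (blue) and 4 transgenic (orange) arrays, numbered by array, with the group mean (line) and SD (bar); every panel spans 2.5 log2 units. The groups lie apart for the 3 Odc1 probe sets, Srm and Smox, and wild type Sat1 values are spread from 7.34 to 9.12.

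Smox, encoding spermine oxidase, rose. Its probe set 1424268_at read 5.52, 5.69, 5.41 and 5.47 in wild type arrays 1 to 4 and 6.11, 5.89, 6.10 and 6.19 in transgenic arrays. All transgenic values lay above all wild type values, and the spread within each group was small, with means of 5.52 ± 0.12 and 6.07 ± 0.12 (SD, n = 4 each). The log2 fold change was 0.55 ± 0.10 (SE, adjusted p = 0.0061), a 1.46-fold higher level in transgenic samples. The wild type values lay near the array medians of 5.40 to 5.51, where background can compress a fold. The call held without any 1 array (log2 fold changes from 0.51 to 0.61, adjusted p up to 0.0265) and with the stromal score in the fit (0.65, adjusted p = 0.0394).

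Sat1, encoding the acetyltransferase of polyamine breakdown, was too variable in wild type samples to be called. Its probe set 1420502_at read 8.74, 9.12, 7.86 and 7.34 in wild type arrays 1 to 4 and 8.83, 9.34, 8.99 and 8.71 in transgenic arrays. The groups overlapped: wild type arrays 1 and 2 were within the transgenic range, and wild type arrays 3 and 4 were below it. The means were 8.27 ± 0.81 and 8.97 ± 0.27 (SD, n = 4 each). The log2 fold change was 0.70, with a 95% interval from -0.01 to 1.41 (adjusted p = 0.242), so these arrays set neither its size nor its absence. It was 0.39 without wild type array 4 and 0.99 without wild type array 2.

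The antizyme transcripts gave small differences with narrow intervals. Oaz1 on 1436292_a_at read 11.67, 11.76, 11.48 and 11.43 in wild type and 11.54, 11.53, 11.44 and 11.59 in transgenic samples. The log2 fold change was -0.06 with a 95% interval from -0.29 to 0.16, and the probe set named for both Oaz1 and Oaz1-ps gave 0.08, from -0.14 to 0.30. For Oaz2 the 2 probe sets gave 0.04, from -0.17 to 0.26, and 0.10, from -0.11 to 0.30. On the brighter, 1426763_at, the arrays ranged from 7.89 to 8.14 in wild type and from 8.05 to 8.19 in transgenic samples. None of these 4 probe sets passed, and their intervals leave room for changes of up to 0.30 on the log2 scale.

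Azin1, the antizyme inhibitor, read 9.36, 9.17, 9.06 and 8.99 in wild type and 8.97, 9.05, 9.11 and 8.80 in transgenic samples on its brighter probe set, 1450714_at. The groups overlapped. The log2 fold change was -0.16, with a 95% interval from -0.41 to 0.08 (adjusted p = 0.479). The other probe set, 1422702_at, gave -0.25, from -0.55 to 0.05 (adjusted p = 0.353). Both values were below 0 and neither passed. The second was -0.14 without wild type array 2 and -0.01 with the stromal score in the fit, and the first -0.09 without wild type array 1.

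Counted together, 5 of the 11 member probe sets were called, 4 lower and 1 higher. Over all 22626 probe sets 9.84% were called, 4.36% lower and 5.48% higher. The 5 called member probe sets had groups that did not overlap, as did 15.0% of all probe sets. The 4 lower ones read only Odc1 and Srm. By gene, each read on its brightest probe set, 2 fell, 1 rose and 4 did not pass, where 11.0% of all 12393 genes were called, 4.98% lower and 5.99% higher. The median log2 fold change of the 7 genes was -0.06, against -0.04 over all genes. Without transgenic array 2 the 4 lower probe sets became 2, and with the stromal score as a covariate 1, Srm. Calls over all probe sets were fewer too in both settings.

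**Figure D2:**
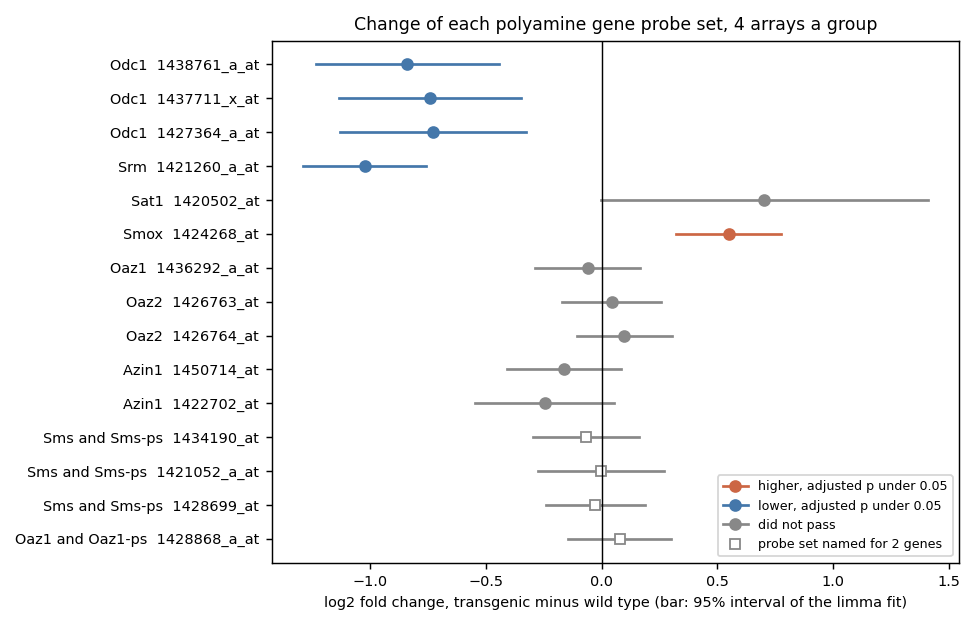
Log2 fold change, transgenic minus wild type (x axis), of each polyamine gene probe set, with its 95% interval in the limma fit; blue was called lower, orange higher, grey did not pass, and open squares name a second gene. The 3 Odc1 probe sets and Srm lie between -1.03 and -0.73, Smox at 0.55, and the antizyme probe sets near 0.

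Genes that supply ornithine, the substrate of Odc1, fell in part. Of 13 measured genes of ornithine and arginine supply, 3 fell, and 10 did not pass. The called share was 23.1%, against 11.0% of all genes. Of the 13 genes, 7 had means below every array median, so their values are approximate. The list median was -0.12 on the log2 scale and had no firm size: it was -0.22 without transgenic array 2, -0.06 without transgenic array 3, -0.38 without the dimmest 40% of probe sets and -0.05 with each gene read as the mean of its probe sets. Asl, encoding the urea cycle enzyme argininosuccinate lyase, read from 7.42 to 8.09 in wild type and from 6.73 to 7.08 in transgenic samples, and fell by 0.77 (SE 0.14, adjusted p = 0.00569). Aldh18a1, which makes the glutamate-derived precursor of ornithine and proline, fell by 0.85 (SE 0.16, adjusted p = 0.0059), and all 5 of its probe sets were called lower. Arg2, encoding the mitochondrial arginase that releases ornithine, fell by 0.42 (SE 0.11, adjusted p = 0.0391). Its other probe set gave a like value, -0.42, and narrowly missed the threshold (adjusted p = 0.0502). The call of the first was lost on leaving out any of 6 arrays, the exceptions being wild type 3 and transgenic 1 (adjusted p up to 0.125), and with the stromal score, where the log2 fold change was no smaller (-0.53, adjusted p = 0.123).

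Arginase 1 (Arg1), which macrophages can also express, had a log2 fold change of 0.46 and narrowly missed the threshold (adjusted p = 0.0537). It read from 4.45 to 4.96 in wild type and from 4.89 to 5.32 in transgenic samples, below every array median, so the value is approximate. After cyclic loess normalization it passed (adjusted p = 0.0273), as it did after quantile normalization (adjusted p = 0.0291) and without the dimmest 40% of probe sets (adjusted p = 0.0451). Of 14 macrophage markers 1 rose, the mannose receptor gene Mrc1 by 2.27, a called share of 7.14% against 11.0% of all genes. The array means of the list ran from -0.43 to 0.35 in wild type and from -0.05 to 0.06 in transgenic samples. The part of macrophages in the Arg1 value was not tested. Oat, encoding ornithine aminotransferase, was at -0.38 and did not pass (adjusted p = 0.316).

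S-adenosylmethionine is the source of the aminopropyl groups. Of 12 genes of its supply and salvage, 1 fell, 1 rose and 10 did not pass, a called share of 16.7% near the 11.0% of all genes. The median of the list was 0.00. Gnmt, encoding the glycine N-methyltransferase that consumes S-adenosylmethionine, read 8.56, 8.11, 7.81 and 7.99 in wild type and 6.44, 6.53, 6.72 and 6.42 in transgenic samples. The groups were far apart, and Gnmt was 3.00-fold higher in wild type (log2 fold change -1.58 ± 0.15, SE, adjusted p = 4.95e-05). Got1, an aminotransferase, rose by 0.47 (adjusted p = 0.0375), a call lost on leaving out any of 6 arrays, the exceptions being wild type 1 and 3 (adjusted p up to 0.113), and with the stromal covariate (0.23, adjusted p = 0.620). The salvage gene Mtap, which recycles the by-product of spermidine and spermine synthesis, was at -0.06 (adjusted p = 0.811).

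Spermidine also serves as the substrate for hypusine, a modified lysine of the translation factor eIF5A. Dhps, encoding the enzyme that starts this modification, rose by 0.47 (SE 0.12, adjusted p = 0.0290), from 6.70 ± 0.10 to 7.17 ± 0.22 (SD, n = 4 each), and its other probe set was also called higher. The call was lost on leaving out any of 6 arrays, the exceptions being wild type 4 and transgenic 3 (adjusted p up to 0.0787), and with the stromal score (0.44, adjusted p = 0.277). Eif5a itself read 12.38, 12.12, 12.40 and 12.37 in wild type and 12.31, 11.52, 11.52 and 11.89 in transgenic samples, a log2 fold change of -0.51 that did not pass (adjusted p = 0.0871). Transgenic array 1 was within the wild type range. Without that array Eif5a passed (-0.67, adjusted p = 0.00777), as it did without array 1 of both groups (-0.65, adjusted p = 0.0115) and with array weights (-0.61, adjusted p = 0.0161). Of these 3 genes, counting Dohh at -0.10, 1 rose and 2 did not pass.

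Among 9 other genes of polyamine oxidation and transport, 2 fell, 1 rose and 6 did not pass. The called share was 33.3%, against 11.0% of all genes. The list had a median of -0.25, against -0.04 over all genes. Of the 9 genes, 5 had at least 1 group mean below every array median. Atp13a2 and Atp13a3 encode ATPases that move polyamines out of lysosomes and endosomes. Atp13a2 fell by 0.54 (SE 0.10, adjusted p = 0.00549) and Atp13a3 by 0.68 (SE 0.13, adjusted p = 0.0058). The groups did not overlap for either, as for 15.0% of all probe sets. A further Atp13a2 probe set fell by 1.07 and a dim one was at -0.16, while both Atp13a3 probe sets fell. Slc12a8, of the cation chloride cotransporter family, rose from 5.12 ± 0.14 to 6.13 ± 0.18 (SD, n = 4 each), a log2 fold change of 1.01 (adjusted p = 0.000221), from a wild type mean below every array median. Slc3a2, an amino acid transporter subunit linked to polyamine export, was at 0.28 (adjusted p = 0.146). Aoc1, encoding diamine oxidase, was at -0.08 (adjusted p = 0.825).

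Odc1 is a textbook target of MYC, whose part in the Odc1 value was not tested. Of 20 genes of the MYC family and MYC-induced genes, 2 rose and 18 did not pass, a called share near the 11.0% of all genes. The list median was 0.02, and -0.03 after quantile normalization. The list mixes MYC-induced genes with family genes (Myc, Mycn, Mycl, Max, Mxd1, Mxd4, Mxi1 and Mnt), so its median does not measure MYC activity. Myc read 6.66, 6.28, 6.19 and 5.97 in wild type and 6.24, 6.10, 5.88 and 6.04 in transgenic samples, overlapping groups with a log2 fold change of -0.21 (adjusted p = 0.476). Cad, encoding the enzyme that starts pyrimidine synthesis, rose by 1.10 (SE 0.21, adjusted p = 0.00638) on this probe set and by 1.02 on its other one. It lost its call with the stromal score in the fit (0.68, adjusted p = 0.233). Ldha rose by 0.93 (SE 0.11, adjusted p = 0.00032).

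Odc1 is also known as an androgen-induced gene in prostate. The part of androgen in the Odc1 value was not tested either. Of 17 androgen-induced genes 8 fell, 1 rose and 8 did not pass, a called share of 52.9% against 11.0% of all genes, and the list median was -0.38. This list, like the others, was chosen with earlier results of these data known, so its share is a description only. The 11.0% covers genes of every brightness and is not matched to the list. Msmb and Pbsn, secretory genes of the prostate, fell by 1.72 (SE 0.32) and 1.28 (SE 0.22), with adjusted p of 0.00592 and 0.00361. Tsc22d3 fell by 1.41 and Herpud1 by 1.07, and Gnmt stands in this list too. Tmprss2, a transmembrane protease gene, rose by 0.97. Klk1, a kallikrein protease gene, is among those that did not pass, on its brightest probe set (0.34, adjusted p = 0.130), but its probe sets disagreed. The other Klk1 probe sets rose by 3.05 and 3.50 (adjusted p = 6.7e-05 and 1.99e-05), more in size than the fall of Msmb, from wild type means of 3.70 and 3.67 below every array median. Ndrg1, a stress-response gene, did not pass on its brightest probe set (-0.31, adjusted p = 0.155), while 2 of its 5 probe sets were called lower. With the stromal score as a covariate 4 of the 17 were called lower in place of 8, and lower calls over all probe sets dropped in like measure. The calls of Msmb and Pbsn were among those lost (adjusted p = 0.0874 and 0.0750), at log2 fold changes of -1.73 and -1.25, little changed.

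**Figure D3:**
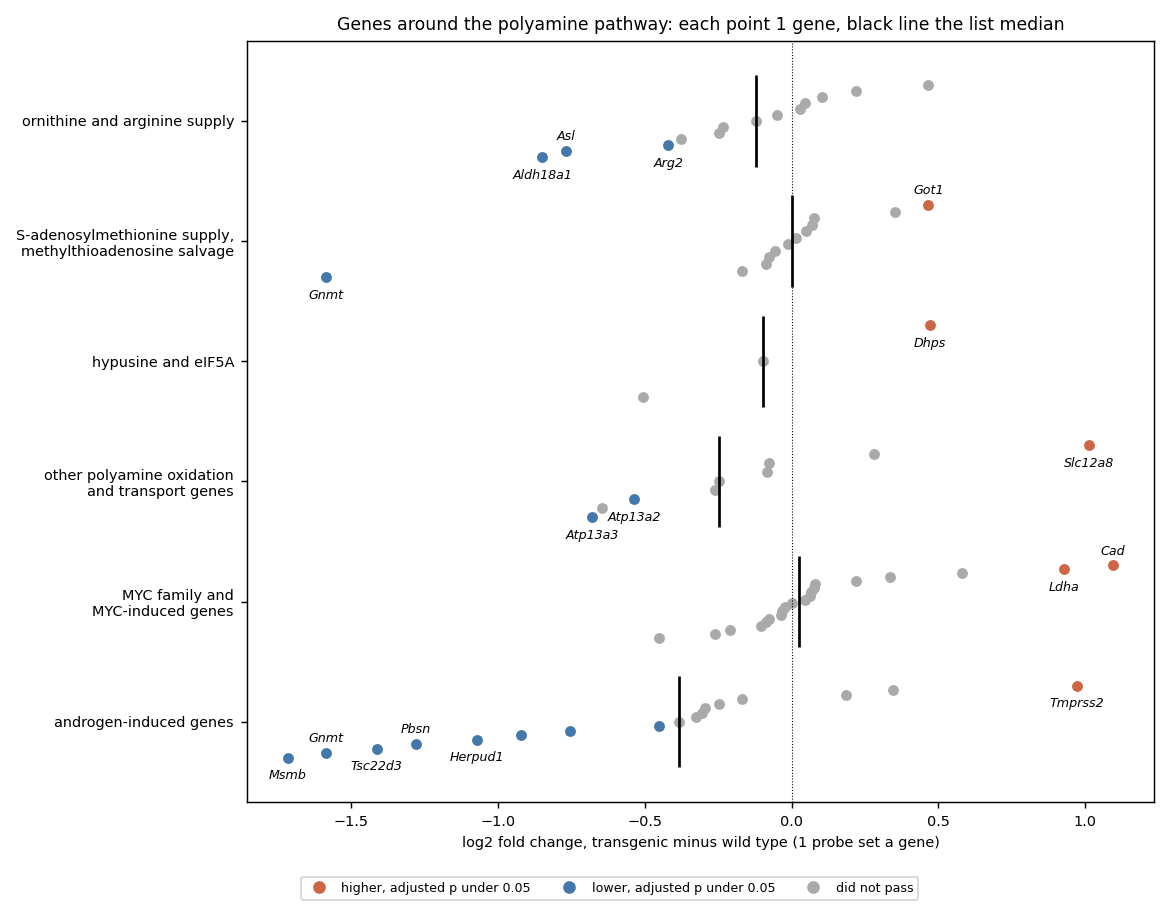
Log2 fold change, transgenic minus wild type (x axis), of the genes around the polyamine pathway, 1 point a gene, in 6 lists (rows); blue was called lower, orange higher, grey did not pass, and the black line is the list median. Each gene is read on its brightest probe set. The androgen-induced list has its median at -0.38 with 8 genes called lower, and the MYC list at 0.02 (-0.03 after quantile normalization) with 2 called higher.

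Srm had the largest change among the members called, so the genes with the nearest pattern to it were found by the Euclidean distance between centred log2 values over the 8 arrays. The nearest were Gjb1, a connexin gene, at a distance of 0.253, Syvn1, a ubiquitin ligase gene of the endoplasmic reticulum, at 0.323, and Gstz1 at 0.327. Copz2 and Susd2 followed at 0.359 and 0.364, and the median distance over all genes was 1.52. All 5 fell, by 0.96, 0.97, 0.97, 1.25 and 1.11 in that order. The distance uses the group difference, so genes with a like fold change lie near each other by construction.

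**Figure D4:**
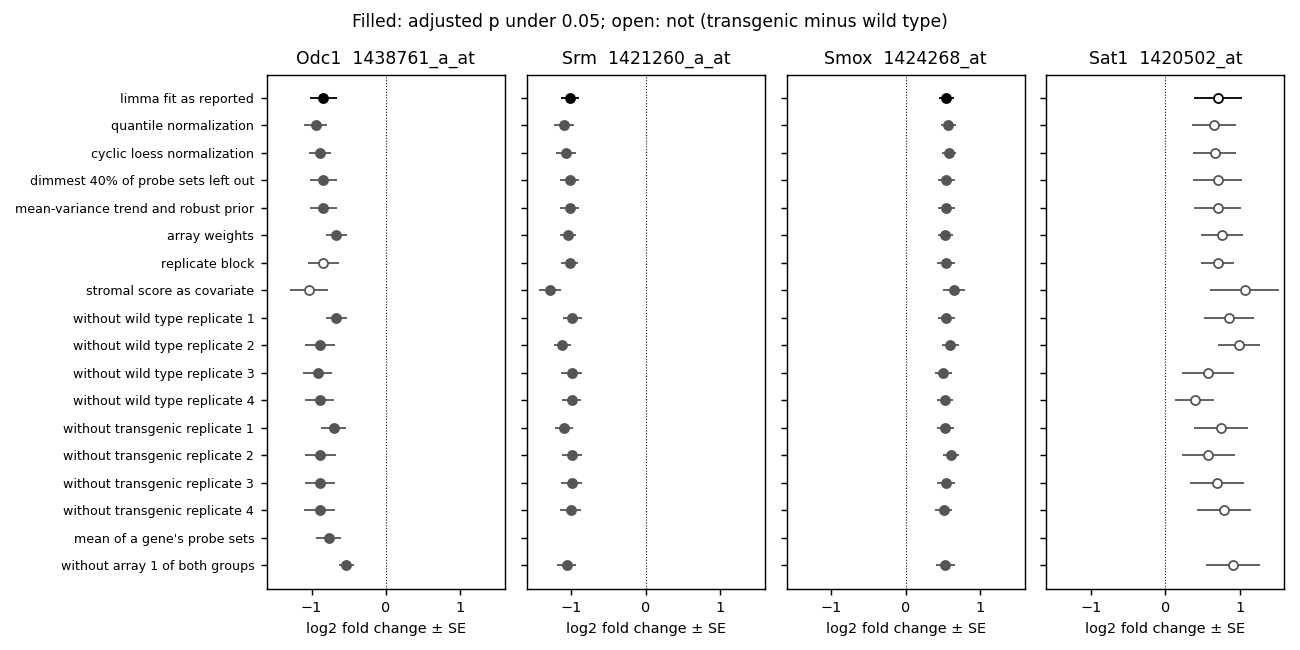
Log2 fold change with its SE (x axis) of Odc1, Srm, Smox and Sat1 under each processing setting (rows), filled where the adjusted p was under 0.05. Srm and Smox are filled in every row in which they have a value, Sat1 in none, and Odc1 is open with the replicate block and with the stromal score as a covariate.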

How the data were processed

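Total RNA of ventral prostate was read on Affymetrix mouse arrays, with 1 array for each sample. The values the authors deposited are on a log2 scale, and RMA is named in the submitters' processing notes with no version. Of 22690 probe sets 64 controls were left out, and every column was used. The precision is limited by the number of arrays, 4 in each group.

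The platform annotation named the probe sets, with symbols updated through gene identifiers to the RefSeq table of GRCm38.p6. There 20380 probe sets had 1 symbol, 691 several and 1555 none. A gene was read on its probe set with the highest mean. The limma package (3.58.1, under R 4.3.3) was run with lmFit and eBayes over all 22626 probe sets, the threshold being a Benjamini-Hochberg adjusted p of 0.05. The fit was tested on simulated data, where it recovered 31.3% of planted log2 changes of 0.5, 82.1% of 1 and 100% of 2. That simulation called 147 probe sets, against 2227 in the data, so its shares need not hold here. Promoter windows came from RefSeq for 7 of the 9 genes (8 windows).

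The members and the lists were chosen with earlier results of these data known. Every member is named whatever its values. In each list around the pathway up to 6 called genes are named by size of change, or the one with the smallest p, besides genes fixed by name. Mtap, Dohh, Klk1, Ndrg1 and Mrc1 come from their lists and were added after their values were seen. Alternatives were other normalizations, a filter on dim probe sets, other variance models, array weights, a replicate block, a stromal covariate (24 genes), the mean of a gene's probe sets, leaving out probe sets by suffix, a threshold of 0.01 and leaving out each array. Leaving out array 1 of both groups was chosen after seeing the data. Same-numbered arrays did not deviate together: the correlations of their deviations were -0.31, 0.24, -0.20 and 0.33, so the numbers were not taken to pair samples.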

Additional observations from a re-analysis of the deposited data

Results flagged for a closer look

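Single arrays stood apart from the other 3 of their group, with a gap above Dixon's 95% critical share of the group's range, in 7 of 74 groups of 4 values, where chance flags about 1 in 20. For Odc1 (1438761_a_at) these were wild type array 1, at 10.91 against 10.16 to 10.26, and transgenic array 1, at 9.15 against 9.68 to 9.71. For Srm they were wild type array 2, at 9.47 against 9.84 to 9.87, and transgenic array 1, at 8.95 against 8.64 to 8.68. Transgenic array 2 was at 8.19 for Oaz2 (1426763_at), against 8.05 to 8.06. Wild type array 1 was at 3.65 for the dim probe set 1428699_at named for Sms and Sms-ps, against 3.83 to 3.86. Wild type array 2 was at 12.12 for Eif5a, against 12.37 to 12.40.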

How the results depend on the processing

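Srm stayed lower and Smox higher past the threshold under every alternative that gave them a value, and Sat1, Oaz1, Oaz2 and Azin1 passed under none. Odc1 on its brightest probe set kept its direction throughout but missed the threshold with the replicate block (-0.84, adjusted p = 0.0506) and with the stromal score (-1.03, adjusted p = 0.0558). The adjusted p of that probe set was between 0.00282 and 0.0558 over the alternatives other than leaving out 1 array. The 4 lower member probe sets became 2 with the replicate block and 1 with the stromal score or at a threshold of 0.01. They became 0 without probe sets of suffix _s_at, _x_at or _a_at, by construction, since all 4 carry one. Leaving out each array gave 2 to 4.

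Over all probe sets 1241 were higher and 986 lower. These counts were 1875 and 1712 with array weights, 519 and 446 with the stromal score, 668 and 428 at a threshold of 0.01, and 748 and 632 of 15605 without the suffixed probe sets. Leaving out each array gave 819 to 1429 higher and 568 to 1096 lower, the lowest both without transgenic array 2. The block also ended the call of Odc1 1427364_a_at (adjusted p = 0.0737) and changed no other member's call, and 2 of 8 arrays correlated best with their own number. Dhps, a list gene and not a member, lost its call with the block too (adjusted p = 0.0673). Of the alternatives other than leaving out 1 array, 3 of 9 ended the call of Dhps and 2 of 8 that of Got1. The small Oaz1, Oaz2 (1426763_at) and Sms (1434190_at) values changed sign, to 0.01 for Oaz1 with the stromal score and, without wild type array 4, to -0.01 for Oaz2 and 0.02 for Sms. The 4 arrays of a group limit what small differences can be called.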
